A study of Mus musculus with 48 samples.

Results

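The lacrimal glands of male mice that lack aromatase were compared with those of wild type males. The comparison rests on 12 of the 48 arrays of the series, chosen by their titles: 3 knockout and 3 wild type pools, each pool hybridised to mouse arrays of both types used, Affymetrix and CodeLink. Each pool held the glands of 5 to 8 mice, per the labels, and the CodeLink titles call the pools biological replicates. The labels used here call the groups aromatase knockout and wild type and give no further detail of the targeted allele, no treatment, no age and no strain. Female lacrimal glands (12 arrays) and male meibomian glands (12 arrays) of the same study served to show where the male lacrimal response differed. The female lacrimal arrays were also part of the model for the male difference, and bore on its spread and on the genes tested.

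Aromatase converts androgens such as testosterone into estrogens, so mice without it make no estrogen of their own while the testis still makes androgen. The lacrimal gland is a serous exocrine gland whose acinar cells secrete the proteins of the tear film, and its size, histology and gene expression are known to differ between the sexes under the control of androgens. Tissue kallikreins, a family of serine proteases that is large in the mouse, are classic androgen-responsive products of the mouse submandibular gland.

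No probe set or spot named the aromatase gene alone, so its transcript was not analysed here. The array medians, over all genes and before scaling, lay between 20.4 and 26.7 signal units on the 6 male Affymetrix arrays. The ratio of 3′ to 5′ control probe sets, a measure of RNA integrity, ranged from 2.51 to 3.42 for actin in knockout pools and from 2.51 to 4.17 in wild type pools. For Gapdh it was 1.67, 1.71 and 1.63 in the knockout pools and 1.73, 1.91 and 1.85 in the wild type pools, which did not overlap, and its part in the results was not tested. The pools did differ in transcripts typical of salivary glands, which lie near the lacrimal gland of the mouse. Bpifa2, a parotid secretory protein, had scaled Affymetrix signals of 4.65, 4045 and 0.404 in knockout pools 1, 2 and 3, and of 1422, 2886 and 1864 in the wild type pools. Amylase 1 (Amy1) had signals of 39.98, 1379 and 24.4 in the knockout pools against 140, 426 and 147 in the wild type pools. Knockout pool 2 and the 3 wild type pools were thus high, and knockout pools 1 and 3 low, in these markers, which were picked after their values were seen. The list of salivary markers had 18 of 22 genes on the array, and its summed signal ranged from 40843 to 43527 in knockout pools and from 40226 to 53294 in wild type pools, mostly through genes that the lacrimal gland also makes, such as Pip and Mucl2. The part of the salivary markers in the results below was not tested. Without knockout pool 2, 122 genes passed the test described next, of which 83 also passed with it.

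In knockout males 121 of 7436 genes tested passed (1.63%), at an adjusted p under 5% in a linear model over the 12 lacrimal Affymetrix arrays (limma, Benjamini-Hochberg adjustment). Of these 74 were higher (0.995%) and 47 lower (0.632%), and 54 of the higher and 25 of the lower genes differed by at least 1 log2 unit. All log2 differences are on the scale of log2(scaled signal + 4.4), or + 0.3054 for CodeLink, which understates changes of dim genes. The 3 pools of each genotype did not overlap for 13.0% of all genes tested, and for all 121 genes that passed. Leaving out knockout pool 1, knockout pool 3 or wild type pool 3 lowered the number of genes to 59, 71 and 55. In bulk tissue, a change in the number of cells of a type and a change in RNA per cell cannot be told apart.

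Ddc, Nmu and Klk1b27 stood out: transcripts that were at or near background in wild type males and in both female groups were abundant in the knockout males. Ddc, aromatic L-amino acid decarboxylase, which makes dopamine and serotonin from their precursors, had scaled signals of 3594, 1775 and 2864 in the knockout pools. In the wild type pools they were 2.64, 15.65 and 8.58. The weakest knockout pool thus lay far above the strongest wild type pool. The log2 difference was 7.75 ± 0.36 (SE, n = 3 and 3), with an adjusted p of 4.15e-11 in limma.

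Nmu encodes neuromedin U, a neuropeptide that contracts smooth muscle and activates receptors on immune cells and in the hypothalamus. Its signals were 1556, 666 and 901 in the knockout pools, and 3.32, 1.89 and 1.39 in the wild type pools. Both female groups stayed at or below 4.64. The log2 difference in males was 7.23 ± 0.32, adjusted p 3.38e-11 in limma. CodeLink values of the same gene were 292, 136 and 218 against 0.387, 0.458 and 0.253. No wild type spot carried the flag G, taken here as detected (its meaning is not stated in the sources used here), so the CodeLink difference was at least 124-fold. For Ddc, the CodeLink bound was at least 25.4-fold, with knockout values of 51.5, 40.4 and 34.9.

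**Figure D1:**
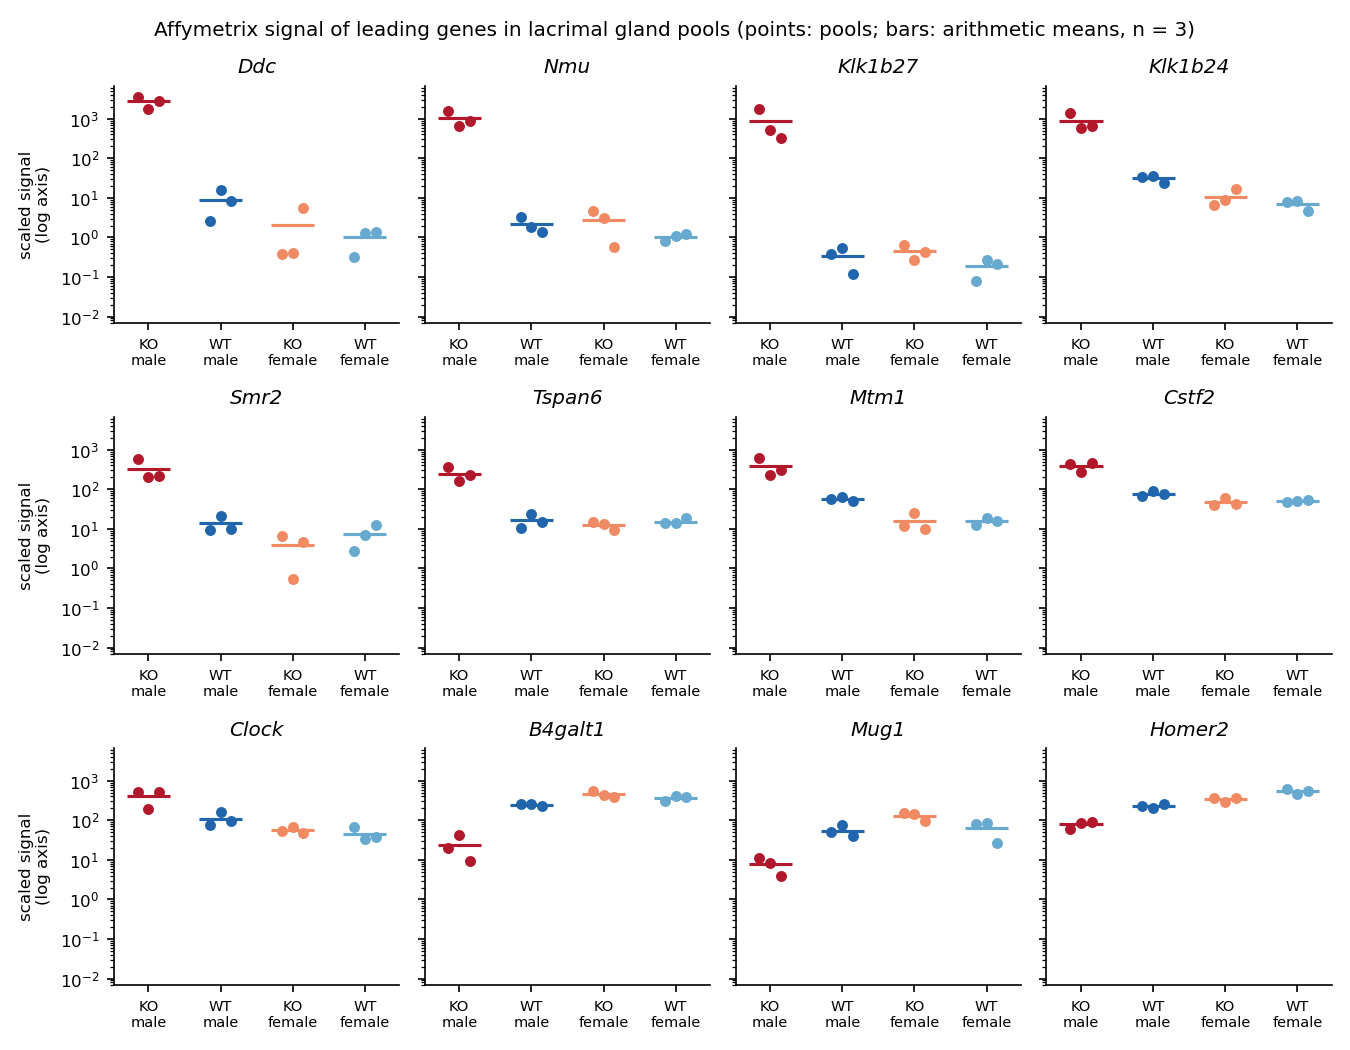
Scaled Affymetrix signal on a log axis for 12 leading genes in the 4 lacrimal groups, with a point for each pool and a bar for the arithmetic mean of 3 pools. Ddc, Nmu and Klk1b27 reach 326 to 3594 in the 3 knockout male pools and stay at or below 15.65 in the other 9, while B4galt1 lies between 9.40 and 43.1 in the knockout males and at 231 or above in the other 9 pools.

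Several glandular kallikreins rose together. Of 20 listed glandular kallikreins, 15 were on the Affymetrix array, 6 had signals high enough to be tested and 4 rose: Klk1b27, Klk1b24, Klk1b21 and Klk1b11. Members can pass the filter through their high level in knockout males, so this count is no measure of the family. Klk1b27 had signals of 1750, 533 and 326 in the knockout pools and of 0.391, 0.540 and 0.116 in the wild type pools, a log2 difference of 7.16 ± 0.43 (adjusted p 3.39e-09, limma). On CodeLink it was at least 33.0-fold higher. Klk1b24 had signals of 1384, 569 and 648 against 33.6, 35.1 and 24.1 (log2 4.52 ± 0.30, adjusted p 1.27e-08, limma). Klk1b21 differed by 3.97 ± 0.47 and Klk1b11, which wild type males already made at 190 to 250 units, by 1.58 ± 0.24. Klk1b24 was 3.90 ± 1.30 log2 units higher on CodeLink without passing there (adjusted p 0.361), where the shared spread includes female pools between 0.868 and 55.2.

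Of the other kallikreins, Klk1b1 was below the Affymetrix filter and had signals of 174, 77.6 and 35.4 in the knockout pools against at most 2.35 in wild type pools. It passed on CodeLink with a log2 difference of 2.26 (adjusted p 0.0227, limma). Egfbp2, an epidermal growth factor binding kallikrein, had 222, 66.7 and 26.4 against 12.9 to 14.8 and did not pass (log2 2.10, adjusted p 0.0582, limma). Klk1, the founding tissue kallikrein, had signals of 7.22, 51.7 and 4.45 against 7.33, 15.02 and 12.6 and did not pass (adjusted p 0.983, limma). These genes are near-identical copies, and how far a probe for one also captures another was not tested, so the identity of the single member is uncertain.

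The promoters of 3 members are shown here because these genes rose together. Each window runs from 250 bases before to 50 bases after the annotated start (RefSeq, GRCm38.p6, plus strand), read 5′ to 3′, with Klk1b27 at chr7:44052040-44052339, Klk1b24 at chr7:44187986-44188285 and Klk1b21 at chr7:44102042-44102341. Capitals mark GGTCA or its reverse complement TGACC, the half-site bound by estrogen receptors and several other nuclear receptors.
Klk1b27: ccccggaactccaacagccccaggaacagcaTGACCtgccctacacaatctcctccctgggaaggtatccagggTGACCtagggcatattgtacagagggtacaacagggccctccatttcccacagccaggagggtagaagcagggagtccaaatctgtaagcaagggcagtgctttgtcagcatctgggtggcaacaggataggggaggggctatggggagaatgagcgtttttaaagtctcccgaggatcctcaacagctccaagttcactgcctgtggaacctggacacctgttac
Klk1b24: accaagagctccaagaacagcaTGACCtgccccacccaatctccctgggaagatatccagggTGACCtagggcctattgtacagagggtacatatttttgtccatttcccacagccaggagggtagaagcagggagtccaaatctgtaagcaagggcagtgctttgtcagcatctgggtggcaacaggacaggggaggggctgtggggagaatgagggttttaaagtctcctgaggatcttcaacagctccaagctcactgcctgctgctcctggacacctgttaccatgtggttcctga
Klk1b21: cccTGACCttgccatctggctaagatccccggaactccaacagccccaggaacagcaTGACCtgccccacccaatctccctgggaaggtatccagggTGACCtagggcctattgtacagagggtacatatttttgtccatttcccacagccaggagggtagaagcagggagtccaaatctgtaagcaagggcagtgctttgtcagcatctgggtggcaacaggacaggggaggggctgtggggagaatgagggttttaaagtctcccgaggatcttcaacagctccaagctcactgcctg
After global alignment the Klk1b27 window shared 262 of 300 bases with Klk1b24 and 259 with Klk1b21. Klk1b27 and Klk1b24 held 2 such half-sites each, and Klk1b21 held 3. Among all 32851 promoters of the table, 40.5% held at least 1, 10.8% at least 2 and 2.35% at least 3. The windows of Klk1b1 and Klk1 held 2 and 3 half-sites, and that of Klk1b11 held none. AGAACA, the half-site of androgen and glucocorticoid receptors, occurred on either strand in Klk1b24 alone of these 6 kallikreins and in 19.0% of all promoters. Inverted repeats of either motif with 3 bases between the arms were in none of them. For Nmu, on the minus strand at chr5:76363728-76364027, the window outside this family with the largest CodeLink difference reads as follows.
Nmu: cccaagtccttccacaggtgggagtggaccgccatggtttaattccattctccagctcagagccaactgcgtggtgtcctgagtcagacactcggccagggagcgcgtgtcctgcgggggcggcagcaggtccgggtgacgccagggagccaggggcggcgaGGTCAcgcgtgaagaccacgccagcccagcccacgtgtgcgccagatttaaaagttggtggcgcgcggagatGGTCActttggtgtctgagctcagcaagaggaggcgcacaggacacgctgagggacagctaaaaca
It shared the number of GGTCA half-sites, 2, with Klk1b27. These matches describe the letters of the windows only.

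Other genes of the pathways of Ddc and Nmu were looked at next. Among 9 tested genes of monoamine synthesis and transport Ddc alone rose, beside 0.995% of all genes tested. The list's median log2 difference was 0.18 beside -0.032 for all genes tested. Qdpr and Spr, which regenerate and make the cofactor of the preceding hydroxylase step, differed by -0.19 and 0.25 without passing (adjusted p 0.884 and 0.827, limma). Maoa, which degrades monoamines, differed by 0.18 (adjusted p 0.938). Among 9 tested neuropeptide, peptide hormone and receptor genes Nmu and Mrap rose, beside the same 0.995%, with a median of 0.04. As with the kallikreins, members can pass the filter through their high level in knockout males, so neither count is a measure of its list. Mrap, the accessory protein that carries melanocortin receptors to the cell surface, had signals of 302, 144 and 284 against 68.6, 104 and 125 (log2 1.23 ± 0.26, adjusted p 0.0164, limma). Mc5r, the melanocortin receptor of exocrine glands, differed by -0.53 and did not pass (adjusted p 0.414, limma).

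The other genes among the 20 largest increases follow. Smr2, a submaxillary gland androgen-regulated protein, had signals of 583, 202 and 211 against 9.38, 21.7 and 10.2 on Affymetrix (log2 4.09 ± 0.41). Its CodeLink values, 10.5, 5.76 and 5.81 against 3.74, 5.78 and 4.60, overlapped between the genotypes and gave a log2 difference of 0.58 (adjusted p 0.611, limma). Tspan6, a tetraspanin, rose on both array types, by 3.59 ± 0.29 and 3.71 log2 units. Its Affymetrix signals were 361, 160 and 230 in knockout pools against 10.5, 24.01 and 14.6 in wild type pools. Pcdh20, a protocadherin of cell adhesion, rose by 3.43 ± 0.35 log2 units. Mtm1, a phosphoinositide phosphatase, rose by 2.54, although its 3 probe sets disagreed and ranged from -0.18 to 2.54. Cstf2, a factor of messenger RNA 3′ end cleavage, rose by 2.24 with signals of 447, 266 and 464 against 68.4, 89.7 and 75.1.

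Acsbg1, which activates very long chain fatty acids, rose by 2.36 log2 units on Affymetrix and 2.28 on CodeLink. Dpysl3, a cytoskeletal regulator of neurite growth, rose by 2.18 and 2.10. Ggt7 of the gamma-glutamyltransferase family rose by 1.83 and 2.31. Tgm2, the tissue transglutaminase that crosslinks proteins, rose by 1.96 and Mad1l1 of the spindle checkpoint by 1.79, both on Affymetrix. Clock, a core transcription factor of the circadian clock, had signals of 513, 196 and 510 against 74.6, 163 and 94.8, and rose by 1.78 ± 0.33 (adjusted p 0.00597, limma) and on CodeLink by 1.92. Both of its probe sets passed. No other of the 16 tested clock genes passed, beside 1.63% of all genes tested, and their median was -0.04. Olfml3, an extracellular olfactomedin-like protein, and Rdh16, a retinol dehydrogenase that also acts on steroids, rose by 1.78 and 1.70.

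The largest decrease among genes that passed was in B4galt1, the galactosyltransferase that adds galactose to the glycans of secreted proteins. Its signals fell to 20.1, 43.1 and 9.40 in the knockout pools from 252, 254 and 231 in the wild type pools. CodeLink values were 0.879, 1.99 and 1.13 against 16.2, 14.8 and 17.1. The genotypes were far apart on both types, and the log2 differences were -3.31 ± 0.29 (adjusted p 9.85e-07, limma) and -3.37 ± 0.24 (adjusted p 1.43e-05). Of 26 glycosylation enzymes tested on Affymetrix B4galt1 was the only one that fell, beside 0.632% of all genes tested. Slc35a1, the carrier of CMP-sialic acid into the Golgi, was the only one that rose (0.74 ± 0.17), beside 0.995% of all genes tested. Slc35a1 did not pass without knockout pool 1, knockout pool 3 or any 1 of the wild type pools, nor on CodeLink (0.91, adjusted p 0.353, limma). Of 26 tested on CodeLink B4galt1 fell and Galnt12, which starts O-linked glycans, rose (1.07, adjusted p 0.0218, limma). Of all genes tested there 0.213% fell and 0.655% rose. Fut8, which adds core fucose, had a log2 difference of 1.20 and did not pass (adjusted p 0.0760, limma). The list's median was 0.07.

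Mug1, a murinoglobulin that traps proteases, had signals of 10.9, 8.24 and 3.94 against 49.9, 75.2 and 39.7 and fell by 2.30 log2 units, and by 1.73 on CodeLink. Shisa2, an inhibitor of Wnt and FGF receptor maturation, fell by 1.79 and on CodeLink by 1.71. Fgl2, a fibrinogen-like protein, fell by 1.70, but 1 of its 2 tested probe sets passed, at -1.70 and -0.48. Homer2, a scaffold of calcium signalling in exocrine cells, fell by 1.51, with signals of 61.6, 85.2 and 92.4 against 231, 208 and 258. Asgr1, a lectin that binds exposed galactose, fell by 1.34 and on CodeLink by 2.14. Plagl1, an imprinted zinc finger gene, fell by 1.85 on Affymetrix but its CodeLink difference was -0.15 (adjusted p 0.988, limma). Fxyd4, a regulator of the sodium pump in ducts, fell by 1.68, with a CodeLink difference of -0.17 (adjusted p 0.982, limma). Its wild type pools, 14.3, 46.4 and 27.2, differed widely.

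The other genes among the 20 largest decreases ranged from -1.36 to -1.07. They were Slc41a2, a magnesium transporter, Atm, the DNA damage kinase, Gpr155, Cmya5, Dnaja4, a co-chaperone, Folh1, a folate hydrolase, Nck2, an adaptor of tyrosine kinase signalling, Cyp39a1, an oxysterol hydroxylase, Pllp, a membrane proteolipid, Dock8, Tmigd1 and Dmbt1. Pllp also passed on CodeLink (-1.18, adjusted p 0.0465, limma). Of the 3 probe sets of Dnaja4 2 passed, with differences from -1.25 to -0.02. Atm and Dnaja4 lie among the genes around the targeted aromatase gene. Of the nearest 200 tested genes in RefSeq order, 100 upstream and 100 downstream, 7 passed (3.5%, beside 1.63% of all genes tested), namely Tirap, Tmprss4, Il18, Atm, Acsbg1, Dnaja4 and Crabp1.

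**Figure D2:**
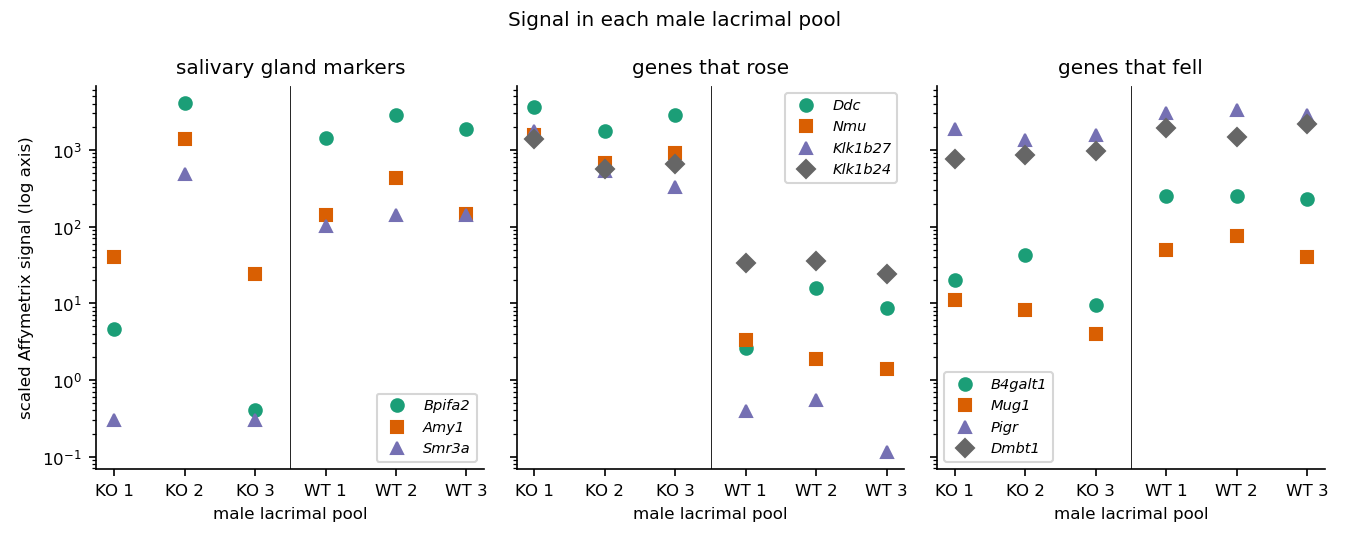
Scaled Affymetrix signal on a log axis in each of the 6 male lacrimal pools (KO, knockout; WT, wild type) for salivary gland markers, genes that rose and genes that fell. Bpifa2 is at 4045 in knockout pool 2 and at or below 4.65 in knockout pools 1 and 3, while Ddc, Nmu, Klk1b27 and Klk1b24 are at 326 to 3594 in all 3 knockout pools.

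CodeLink arrays of the same 6 pools gave 57 of 6560 genes (0.869%), 43 higher (0.655% of the genes tested) and 14 lower (0.213%), so that 75.4% of the calls were higher. With quantile normalization 65.4% of 78 genes were higher. Each male Affymetrix array was compared with the 3 CodeLink arrays of its own group only, on deviations from the group mean. For 5 of the 6 the best correlated of these 3 bore the same number. The CodeLink values are read here as a repeat measurement of the same pools, not as further animals. Of the 121 Affymetrix genes 87 were tested on CodeLink, 81 of these had the same sign and 25 passed there too, 18 higher and 7 lower. The same-sign share over all genes tested on both array types is not given here. By their CodeLink differences, the largest among those that passed on both types were Nmu, Ddc, Klk1b27, Tspan6, B4galt1, Klk1b21 and Sult1e1. The 6 genes with opposite signs were Urm1, Tirap, Tbc1d24, Ctsh, Dhdds and Uap1, whose CodeLink differences lay between -0.24 and 0.08, none passing. Uap1, an enzyme of UDP-N-acetylglucosamine synthesis, had an Affymetrix difference of -0.92 and a CodeLink difference of 0.08. Of its 4 tested Affymetrix probe sets 1 passed, with differences from -0.92 to -0.11.

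**Figure D3:**
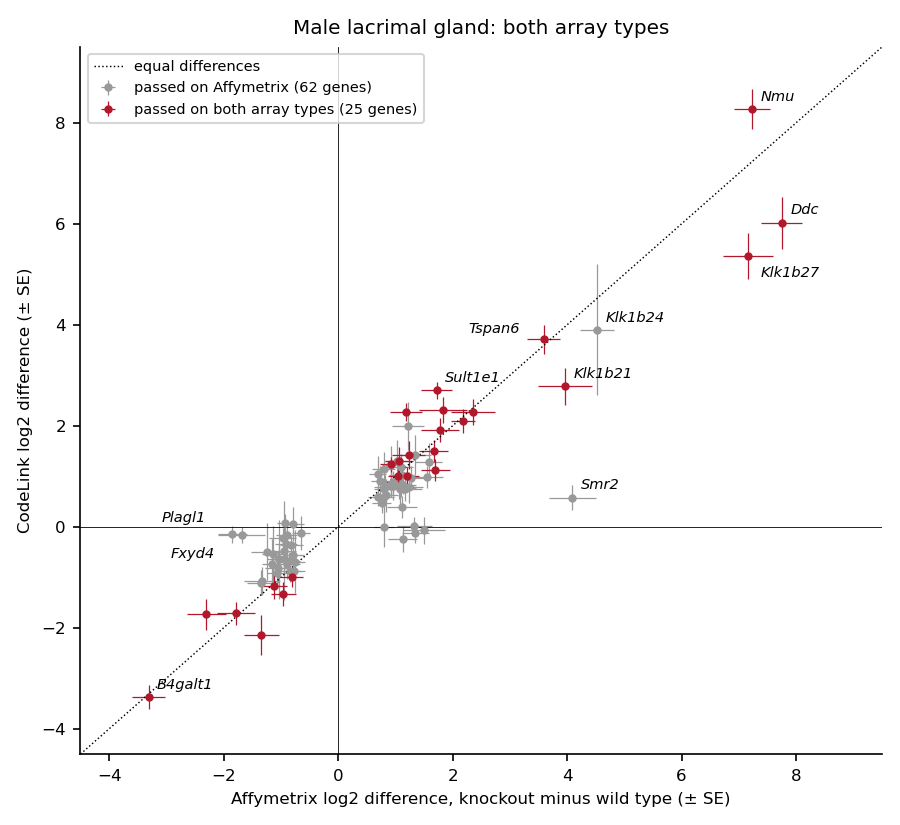
Log2 difference, knockout minus wild type males, on Affymetrix (horizontal) and CodeLink (vertical) for the 87 genes that passed on Affymetrix and were tested on CodeLink, with bars of 1 standard error. Most points lie near the dotted line of equal differences, and Smr2, Plagl1 and Fxyd4 have CodeLink differences of 0.58, -0.15 and -0.17.

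A further 22 genes passed on CodeLink and were not among the Affymetrix genes tested. Ass1, argininosuccinate synthase of arginine and urea metabolism, had CodeLink values of 32.3, 14.3 and 28.1 in the knockout pools against 1.93, 1.81 and 1.76 (log2 3.48, adjusted p 1.43e-05, limma). Svs4, a seminal vesicle secretory protein, had 41.6, 9.65 and 13.8 with no wild type spot flagged G, at least 10.9-fold higher. Its Affymetrix signals, below the filter, were 241, 62.7 and 60.8 against at most 7.54. For Theg, Mesp2, Olah and Slc17a6 the array types differed. CodeLink differences were 3.40, 2.5, 4.17 and 2.39, while no male Affymetrix signal of these genes exceeded 14.1. Epha4, an ephrin receptor, was at least 6.84-fold higher on CodeLink with Affymetrix signals at or below 14.8. Gpr84 and Cyp2a5 fell on CodeLink, by 2.14 and 2.13 log2 units. Gpr84 had male Affymetrix signals of at most 2.93 and did not fall there (log2 0.15 with no filter on low values).

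Among tear and lacrimal secreted proteins 25 of 57 listed were tested, 3 rose and 2 fell, beside 0.995% and 0.632% of all genes tested, and the median was 0.08. Without knockout pool 1 there was 1 higher and 2 lower, and without knockout pool 3 there was 1 in each direction. Lcn2, a siderophore-binding defence protein, had signals of 367, 463 and 314 against 148, 89.0 and 62.4 (log2 1.95 ± 0.27, adjusted p 0.000396, limma). Wfdc12, an antibacterial protease inhibitor, had 9592, 8151 and 9950 against 2415, 5055 and 5014 (log2 1.22 ± 0.28, adjusted p 0.0293). Lyz1, a lysozyme, rose by 0.82. Dmbt1, a mucosal scavenger glycoprotein, fell to 765, 860 and 983 from 1927, 1461 and 2159 (log2 -1.07 ± 0.17, adjusted p 0.00182, limma). Pigr, the receptor that carries polymeric immunoglobulins into secretions, fell to 1903, 1347 and 1550 from 3077, 3287 and 2819 (-0.95 ± 0.22, adjusted p 0.0295). In all of these the pools of the genotypes were apart, but on CodeLink the list had no call in either direction, and Pigr had values of 9.73, 13.3 and 3.95 against 41.5, 4.96 and 6.67 there.

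Other secreted products did not pass. Among them was the lowest difference of the 25 tested, -1.65, below those of Dmbt1 and Pigr. Obp1a, an odorant-binding lipocalin, Pip, Scgb1b2 and Car6, the secreted carbonic anhydrase, had differences of -0.20, -0.23, -0.16 and -0.19. Ltf, lactoferrin, differed by 0.18 and Lpo, lactoperoxidase, by -0.14. None of 27 tested genes of the acinar secretion machinery passed, with differences between -0.45 and 0.44 and a median of -0.01. Of 44 tested chaperones and genes of the unfolded protein response 1 passed, beside 1.63% of all genes tested. It was Ero1a, the oxidase that drives disulfide formation (1.14 ± 0.22, adjusted p 0.00734, limma). Ero1a did not pass without knockout pool 1, knockout pool 3 or wild type pool 3. Although 40 of the 44 were lower than 0 and the median was -0.18, without knockout pool 2, whose summed signal of 39271 was the lowest against 47728 to 55868 in wild type pools, 20 of 44 were above 0 and the median was -0.03.

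All 30 tested of 45 listed markers of macrophages and dendritic cells had a positive difference, beside 44.7% of all genes tested, with a median of 0.60 beside -0.032. Of these 30, 4 passed, all higher, beside 0.995% of all genes tested: Lyz2, Fcgr2b, Clec7a and Ms4a7. On CodeLink 19 of 24 were positive, the median was 0.42 and none passed. Lyz2, the macrophage lysozyme, had signals of 581, 757 and 585 against 384, 354 and 270 (log2 0.93 ± 0.18, adjusted p 0.00762, limma). Fcgr2b, the inhibitory Fc receptor, had 57.5, 103 and 66.4 against 36.9, 34.0 and 35.8. The pools did not overlap for either gene. Of the defining markers Adgre1, which encodes F4/80, had a difference of 0.13 (adjusted p 0.938, limma), Cd68 of 0.38 (adjusted p 0.695) and Csf1r of 0.67 (adjusted p 0.247). The summed signal of 44 markers was 2858, 3712 and 2759 in the knockout pools and 2072, 2078 and 1729 in the wild type pools, highest in knockout pool 2. Without that pool 24 of 30 were positive, the median was 0.53 and 1 gene passed, and without wild type pool 3 none passed.

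Of 23 tested cytokines, chemokines and receptors 5 rose, beside 0.995% of all genes tested, and none fell, while the median was 0.10: Il18, Ccl8, Ccl9, Cxcl16 and Ccl6. On CodeLink 2 of 30 rose, Il18 and Tgfb3, beside 0.655% of all genes tested there. Il18, an interleukin that promotes interferon gamma release, had signals of 111, 76.0 and 73.0 against 26.3, 24.5 and 20.9 (log2 1.67 ± 0.25, adjusted p 0.00091, limma) and also rose on CodeLink (1.5, adjusted p 0.00288). Ccl8, which draws monocytes, had 264, 469 and 294 against 115, 167 and 111. Without knockout pool 2, and likewise without wild type pool 3, 1 of these 23 genes passed. Of 17 antigen presentation genes H2-Aa, a class II chain, alone rose, by 0.80 (median 0.32). Of 23 interferon-stimulated genes Oas1a alone rose, by 1.5 (median 0.36). Both counts stand beside 0.995% of all genes tested. The macrophage markers above move with these genes, and their part in them was not tested.

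Of 37 T and NK cell markers on the Affymetrix array 5 passed the filter on low signals and none the test, and Cd3e, Cd3g and Cd4 were at or below 14.3 in all 6 male pools. On CodeLink 11 were tested and Cd7 rose (1.51, adjusted p 0.0112, limma), beside 0.655% of all genes tested there. None of 11 B and plasma cell genes passed, with Igha at 6387 to 7319 in knockout and 6914 to 8113 in wild type pools. Of 3 tested neutrophil and mast cell markers Lcn2 alone rose, beside 0.995% of all genes tested, and epithelium also makes Lcn2. Complement and acute phase genes had a median of 0.63 over 15 tested, with Lcn2 and Serpina3n (1.02 ± 0.20) higher and Mug1 lower. Of all genes tested 0.995% were higher and 0.632% lower. Among 34 fibroblast and matrix genes Postn (0.93), Mfap5 (1.11) and Mmp3, a matrix metalloproteinase (0.96), rose, beside 0.995% of all genes tested. The median was 0.10. Of these 34 none passed without wild type pool 3, and 1 passed without knockout pool 2, without wild type pool 2 or with no filter on low values. On CodeLink none of 28 passed.

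**Figure D4:**
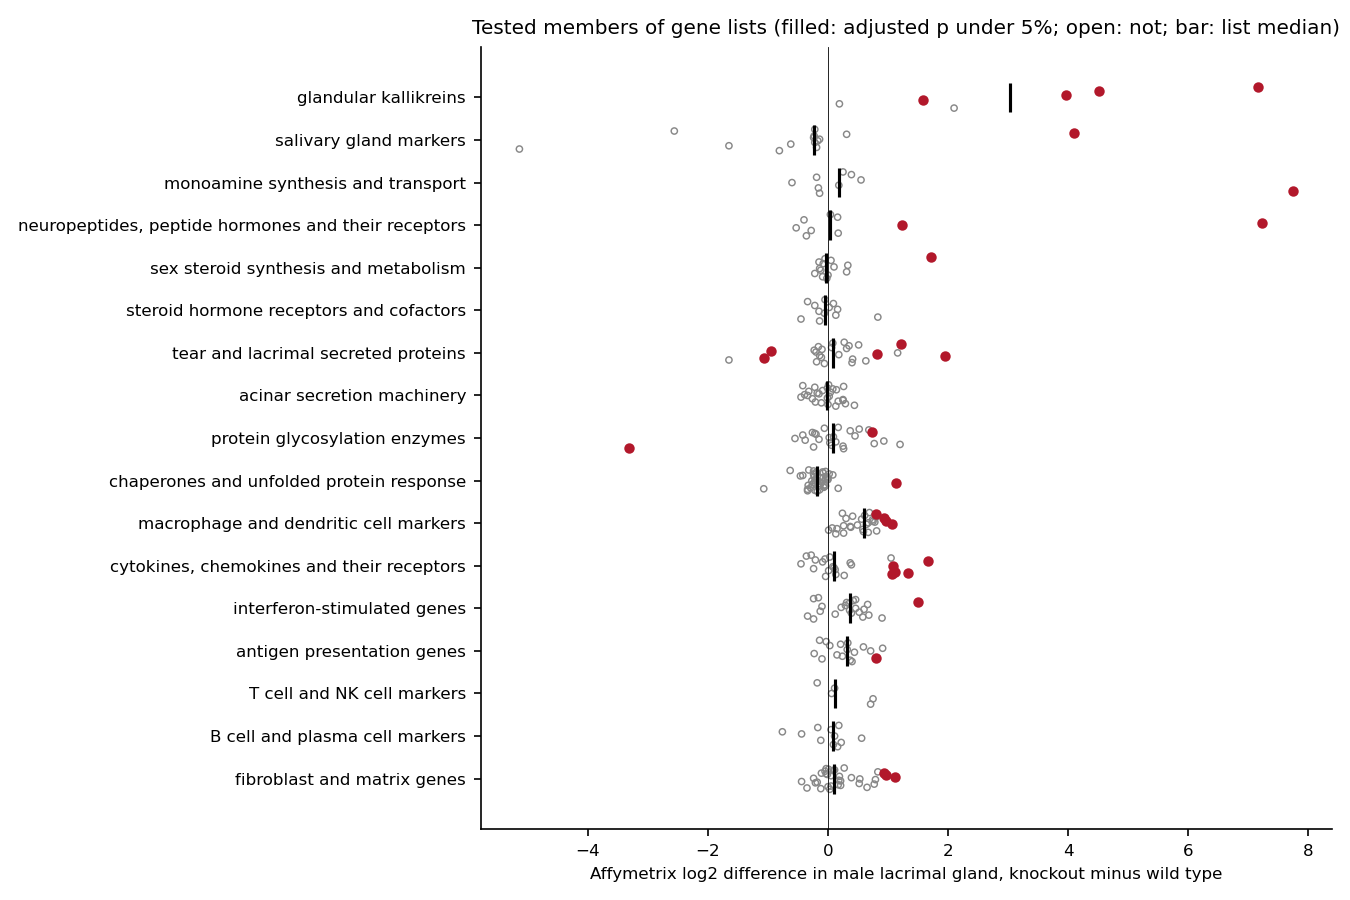
Affymetrix log2 difference in male lacrimal gland of each tested member of 17 gene lists, filled where the adjusted p was under 5%, with a bar at the list's median. All 30 macrophage and dendritic cell markers lie above 0, while single members such as Ddc, Nmu and B4galt1 lie far from the rest of their lists.

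Of 14 tested genes of sex steroid synthesis and metabolism 1 passed, Sult1e1, beside 1.63% of all genes tested, and the median was -0.03. Sult1e1, estrogen sulfotransferase, which inactivates estrogens, had signals of 41.5, 37.6 and 31.4 against 9.19, 5.67 and 9.74 (log2 1.72 ± 0.27, adjusted p 0.00117, limma). Its CodeLink values were 12.3, 13.1 and 10.8 against 1.88, 1.40 and 1.54, 6.48-fold higher (adjusted p 3.33e-06). None of 12 steroid receptors and cofactors passed (median -0.05). Fkbp5, a cochaperone induced by glucocorticoids and androgens, had signals of 1111, 591 and 1103 against 502, 476 and 539 and did not pass (log2 0.83, adjusted p 0.128, limma). Of 18 tested genes known to respond to androgen in submandibular gland or kidney 5 rose, beside 0.995% of all genes tested. All 5 were kallikreins apart from Smr2. The median was 0.12, with 9 differences positive and 9 negative. Members can pass the filter through their high level in knockout males, so this count is no measure of the list.

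The remaining lists are given for Affymetrix. Of 31 genes of oxidative stress and metal handling 3 rose, beside 0.995% of all genes tested, and the median was -0.01. They were Mt1, a metallothionein (1.01), Gpx3, a secreted glutathione peroxidase (1.06), and Ggt7. Of these 31 none passed without knockout pool 1, knockout pool 3 or wild type pool 3, and 1 passed with no filter on low values or without wild type pool 2. Cyp39a1 was the only one of 34 cholesterol and fatty acid genes to pass, Fxyd4 the only one of 21 ductal and myoepithelial genes, and Acsbg1 the only one of 14 Harderian and sebaceous gland markers. Each of these counts stands beside 1.63% of all genes tested. Smr2 was the only call among 14 salivary markers, beside the same 1.63%. Of these 14, 2 had a positive and 12 a negative difference, beside 44.7% positive of all genes tested. Their median was -0.23, and they ranged from -5.14 to 4.09. No gene passed among 49 of mitochondrial respiration, 28 of heat shock and immediate early response, 25 of the cell cycle, 13 endothelial, blood and nerve markers and 8 of adipocytes and muscle. Their medians lay between -0.28 and 0.16. Of genes outside the lists that passed, Hif1a, the oxygen-sensing transcription factor, and Ldha, lactate dehydrogenase A, were higher, by 1.28 and 0.69, and Cebpa, a differentiation factor, had a difference of -1.04; these were picked after their values were seen.

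Whether the same genes responded in females was asked next. In female lacrimal glands 291 of 7436 genes passed (3.91%), 2.34% higher and 1.57% lower. The female and male effects compare different arrays but come from the same fit, so they share the estimate of spread and the filter. Of the 121 male genes 80 had the same sign in females, 18 passed in both sexes with the same sign and 4 with opposite signs. The share of all genes tested with the same sign in both sexes is not given here, so the 80 is no measure of agreement. The shared genes are 18.2% of the male and 7.56% of the female list, counting both signs. Among the 18, Il18, Ccl8, Klk1b11, Wfdc12, Lyz1, Serpina3n, Mrap and Isg20 rose in both sexes, and Atm, Plagl1, Asgr1, Homer2 and Dnaja4 fell in both. Uap1, Cldn8 and Padi2 also fell in both. Opposite signs were found for Fgl2, Wwox, Itih2 and Itih5, each lower in knockout males and higher in knockout females.

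The effects themselves differed between the sexes for 127 genes (1.71%), of which 38 had passed in males, 22 higher and 16 lower there. Ddc, Nmu and Klk1b27 led this group, with female minus male differences of the effects of -7.57, -6.86 and -7.08 log2 units. Their female effects were 0.18, 0.36 and 0.08, none passing. B4galt1 fell in males and had a difference of 0.29 in females (adjusted p 0.710, limma), and its effects differed by 3.6 ± 0.41 log2 units on Affymetrix and 3.37 on CodeLink. Mrap rose in both sexes but more in females, by 3.63 against 1.23, and the effects differed (adjusted p 0.000600, limma), as did those of Lyz1, at 3.30 against 0.82 (adjusted p 1.28e-05). On CodeLink the effects differed between the sexes for 1.08% of genes tested, 0.64% being more negative in females, and Ddc, Nmu and Klk1b27 were among them, at -6.14, -7.49 and -4.93. The CodeLink differences for Mrap and Lyz1 were 0.90 and -0.84 and did not pass (adjusted p 0.579 and 0.418). Among the 30 macrophage markers no effect differed between the sexes by this test, and the female median was 0.18.

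**Figure D5:**
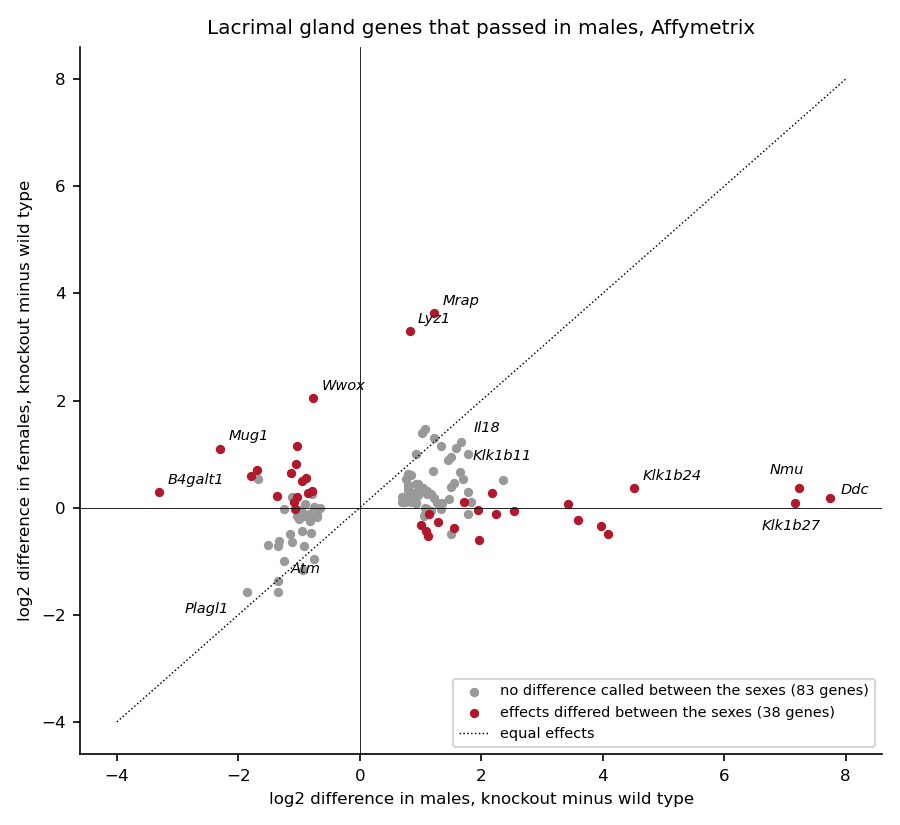
Log2 difference, knockout minus wild type, in male (horizontal) and female (vertical) lacrimal glands for the 121 genes that passed in males, with the 38 whose effects differed between the sexes in red. Ddc, Nmu and Klk1b27 lie at 7.16 to 7.75 in males and at 0.08 to 0.36 in females.

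Male meibomian glands, the lipid-secreting glands of the eyelid, had no gene that passed in limma for the same genotypes. An unadjusted p under 0.05 was found for 462 of 7436 genes, a threshold that 5% of genes would meet without any difference. Effects differed between the glands of males for 58 of 7436 genes (0.780%), 55.2% of them more positive in the lacrimal gland, and for 92 genes, 66.3% of them more positive, with quantile normalization. Without knockout pool 2 the number was 127. Of the 121 lacrimal genes 106 could be tested there and 43 differed. Nmu rose by 7.34 ± 0.34 log2 units more in the lacrimal gland (adjusted p 7.07e-14, limma), and its meibomian difference was -0.11. B4galt1 fell by 3.01 more in the lacrimal gland, with a meibomian difference of -0.30. Tspan6, Smr2, Mtm1 and Dpysl3 rose more in the lacrimal gland, and Fgl2, Shisa2, Dnaja4 and Cmya5 fell more. Ddc and Klk1b27 were below the filter of that fit and were not tested between the glands.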

How the data were processed

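Each pool was measured on an Affymetrix and on a CodeLink array. Per the labels' protocols, RNA was extracted with Trizol and RNAqueous columns and 2 µg was labelled with a CodeLink kit. The deposited Affymetrix intensity per probe set comes from GCOS, per the submitters' processing notes, with no version or detection call used here. The deposited CodeLink intensity per spot is, per the file headers and values, the background-subtracted raw intensity divided by 1 factor per array. Negative values were set to 0 and missing spots left out. The flag G of the CodeLink files was used only for lower bounds; its meaning is not stated in the sources used here, and the brightest spots lack it too.

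Of 22690 probe sets 20393 named 1 gene, 691 several and 1606 none in the platform annotation, with symbols updated through RefSeq (GRCm38.p6, names only). The value table holds 17440 CodeLink spots, and 1 gene was named by 11377 of them. Each gene was represented by the brightest of its probe sets or spots, on average over the lacrimal arrays, giving 12394 and 10956 genes. With every probe set tested, 33 of the 121 male genes had over 1 tested. Of these 33 genes, 31 had all probe sets of the same sign and 12 had over 1 that passed. Arrays were scaled to a common median over genes, a pseudocount was added (4.4 for Affymetrix and 0.3054 for CodeLink, the 20th percentile of positive values), and log2 was taken. The 60% of genes with the highest mean were fitted in limma 3.58.1 (R 4.3.3) with a mean for each group, a trended variance and Benjamini-Hochberg adjustment at 5%. The lacrimal fits held 12 arrays of each type, and the fit across glands all 24 Affymetrix arrays. Tables were made with Python 3.11.15, pandas 2.3.3 and numpy 2.4.6, and promoters were aligned with Biopython 1.88.

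The genes named are the 20 largest increases and the 20 largest decreases that passed, with the same sign on CodeLink or no CodeLink spot, the 6 largest with opposite sign, the 8 and 6 largest per direction for the differences between sexes and glands, up to 10 that passed on CodeLink alone, and members of 30 gene lists. The members and lists were chosen with earlier results of these data known. No set test was run. The precision is limited by 3 pools per group, and array intensities carry no counts. On simulated data with 200 changed genes among 7436, 69% of changes of 1 log2 unit and 96.3% of changes of 2 were found. Alternatives covered normalization, pseudocount, filter, probe choice, scaling, the replicate number as a block and leaving out each male pool.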

Additional observations from a re-analysis of the deposited data

Results flagged for a closer look

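The knockout effect differed between female and male lacrimal glands for 127 genes in limma with Benjamini-Hochberg adjustment. The most positive female minus male differences of the effects, in log2 units, were 6.63 for Ly6f, 5.49 for Cuzd1, 5.39 for Ly6g2, 5.38 for Cyp2j13, 3.6 for B4galt1, 3.58 for Prol1, 3.39 for Mug1 and 3.31 for B4galt6. Among these B4galt1 and Mug1 fell in knockout males, while the male differences of Ly6f, Cyp2j13, B4galt6 and Prol1 lay between -0.49 and 0.31 without passing, and those of Cuzd1 and Ly6g2 were -1.49 and -1.95 (adjusted p 0.0814 and 0.063, limma). The most negative differences were found for Ddc (-7.57), Klk1b27 (-7.08) and Nmu (-6.86), then for Pcdh20 at -3.37, Tspan6 at -3.82, Klk1b24 at -4.16, Klk1b21 at -4.31 and Smr2 at -4.60. All of these rose in knockout males.

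The knockout effect differed between the lacrimal and meibomian glands of males for 58 genes by the same kind of test. The most positive lacrimal minus meibomian differences were 7.34 for Nmu, 4.06 for Smr2, 3.35 for Tspan6, 2.77 for Gp2, 2.29 for Mtm1 and 2.27 for Dpysl3. The most negative were -3.01 for B4galt1, -2.26 for Fgl2, -2.09 for Shisa2, -1.62 for Dnaja4, -1.62 for Cmya5 and -1.54 for Plagl1.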

How the results depend on the processing

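Of 46 genes named for the male comparison 31 passed with the same sign under every alternative in which they had a value, and no alternative reversed a sign. Under some alternatives a gene was below the filter and had no value. Among these were Nmu and Pcdh20 without knockout pool 1 or 3, and Klk1b27 without any 1 of the knockout pools. Nmu and Klk1b27 also had no value with the pseudocount at the 5th percentile (0.6). Over all their alternatives 640 of 722 values kept sign and call, and 82 kept the sign but no longer passed. Leaving out each male pool in turn gave 55 to 122 genes on Affymetrix, 27 to 50 on CodeLink, 94 to 158 between the sexes and 39 to 127 between the glands, and in each case the fits had fewer samples. The largest numbers between the sexes and between the glands came without knockout pool 2, where 114 of the 127 and 57 of the 58 genes passed again, and where 44.9% instead of 59.8% and 70.9% instead of 55.2% were positive. Quantile normalization gave 162, 78, 150 and 92 genes for these 4 comparisons, of which the last exceeds 58 by over 1.5 times; the cause was not tested. Fitting the 6 male arrays alone gave 86 genes on Affymetrix, 76.7% of them higher, against 61.2%. Scaling on the top 60% of genes, chosen after seeing the data, gave 65.2% higher on CodeLink and 67.9% positive between the glands. With the replicate number as a block 131, 83, 136 and 61 genes passed, of which 114, 56, 121 and 55 were also found without the block. Knockout and wild type pools of the same number had correlations of their deviations of -0.048, 0.159 and 0.113 on Affymetrix. Those of different numbers lay between -0.261 and 0.181. So few correlations cannot settle whether the numbers pair the pools, and the main fits treat the pools as unpaired. Dim genes have only understated differences on this scale. Over the alternatives in which they had a value, the differences were 5.80 to 7.50 for Nmu and 5.44 to 7.28 for Klk1b27.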

Other observations

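Some genes that passed in the male comparison were not described above. Sult5a1, a cytosolic sulfotransferase, rose in knockout males by 1.18 log2 units on Affymetrix and by 2.27 on CodeLink. Ptgds, the lipocalin-type prostaglandin D synthase, rose by 1.23 and 1.42. Ptpn1, a tyrosine phosphatase, rose by 0.92 and 1.24. Proc, the precursor of protein C, differed by -0.96 and -1.33 and Lap3, an aminopeptidase, by -0.80 and -1.0, and both passed on the Affymetrix arrays. These genes were chosen after their values were seen.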
